A study of Homo sapiens with 18 samples.

Results

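Histone genes were taken from the count table by symbol, as every row named HIST1H to HIST4H, H2AF, H3F3 or H1F that was not a pseudogene and had 10 or more raw counts in at least 3 libraries. Of the 43735 rows, 101 matched these symbols or the newer forms H1-, H2A, H2B, H3-, H3C and H4C. Of the 101, 8 were pseudogenes and 1 was the antisense gene H1FX-AS1. The other 92 were histone gene rows, and 23 of them met the minimum: 14 of 73 replication-dependent rows (HIST1H and HIST2H symbols) and 9 of 16 replacement rows (H1FX, H2AFJ, H2AFV, H2AFX, H2AFY, H2AFZ, H3F3A, H3F3B and H3F3C). HIST3H3, HIST3H2A and HIST3H2BB each had a second row, at 0 in every library, so rows exceed genes. Of the replication-dependent rows that did not qualify, 16 were at 0 in every library and 43 held some counts, while 4 and 3 replacement rows did so, and none of 3 other H2B rows qualified. The 9 replacement members also met the minimum within the untreated libraries alone, but 7 of the 14 replication-dependent members did not (HIST1H4C, HIST1H2AE, HIST1H3E, HIST1H4H, HIST1H2BJ, HIST1H3H and HIST1H2AM), so their treated libraries decided their place on the list.

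The study sequenced RNA of MM1R and MM1S, human multiple myeloma cell lines of the same origin that are resistant and sensitive to glucocorticoids. Each line was left untreated, exposed to 5 µM RSL3 for 3 h, or given 2 µM ferrostatin-1 (Fer-1) for 2 h ahead of the same RSL3 treatment. The compound RSL3 blocks GPX4, an enzyme that reduces lipid peroxides, and so induces the iron-dependent death called ferroptosis, against which Fer-1, a radical-trapping agent, protects. There were 3 libraries in each of 6 groups, and replicates 1, 2 and 3 came from passages 4, 6 and 7 of MM1R and passages 16, 22 and 23 of MM1S, so that the spread is that between passages of 1 line.

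The 18 libraries held between 17635438 and 19368343 counts. Plasma cell markers were high in every library (XBP1 from 1108 to 1649 CPM, counts scaled to library size, and SDC1 from 371 to 925 CPM), which matches the myeloma label, while CD3E and HBB reached at most 11.5 and 12.7 CPM. NR3C1, the glucocorticoid receptor gene whose low level marks MM1R, stood at 50.2 CPM in replicate 2 of MM1R with Fer-1 and RSL3 against 16.9 and 15.3 CPM in the other 2 libraries of that group, and in MM1S at 89.9 CPM or more. The comparisons with that group are therefore also given without that library. In bulk RNA, fewer cells that express a gene and less of its RNA per cell cannot be told apart.

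Histones package DNA into nucleosomes built from H2A, H2B, H3 and H4, and linker histone H1 binds the DNA between them. Replication-dependent genes lie in clusters, are transcribed mainly in S phase and yield mRNAs that end in a conserved stem-loop, bound by SLBP, in place of a poly(A) tail. Replacement genes are expressed throughout the cell cycle, often carry introns and give polyadenylated mRNAs, and their products (H3.3, H2A.Z, H2A.X, macroH2A, H2A.J, H1.X) enter chromatin outside replication. Whether the libraries were made from poly(A)-selected RNA is not given in the sources used here, so the level of a replication-dependent gene depends on how its RNA ends as well as on how much of it there was.

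The stem-loop separates the classes by sequence, and is shown for that reason. A site of 16 bases was searched within 150 bases after the stop codon on hg19. It was found in 14 of 14 replication-dependent members and in 50 of 50 matched replication-dependent genes below the minimum, but in only 1 of 9 replacement members, H2AFX, whose transcript is known to exist in both a stem-loop and a polyadenylated form. Among all 19807 annotated protein-coding genes it was found in 70 (0.353%). In the lines that follow capitals mark the 16-base stem-loop and lower case its flanks, at chr6:26055972-26055987 on the minus strand, chr1:149857738-149857753 on the minus strand, chr6:27114145-27114160 on the minus strand, chr6:26104545-26104560 on the plus strand, chr6:26225824-26225839 on the plus strand, chr1:149858941-149858956 on the plus strand and chr11:118965608-118965623 on the minus strand, in that order.
HIST1H1C: caaaaGGCTCTTTTCAGAGCCacca
HIST2H2BE: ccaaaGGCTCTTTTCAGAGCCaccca
HIST1H2BK: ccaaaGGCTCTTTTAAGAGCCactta
HIST1H4C: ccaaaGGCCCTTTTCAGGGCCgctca
HIST1H3E: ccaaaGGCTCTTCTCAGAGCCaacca
HIST2H2AC: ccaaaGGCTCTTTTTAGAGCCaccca
H2AFX: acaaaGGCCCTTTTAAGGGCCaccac
The core of HIST1H1C and HIST2H2BE was shared by 7 members in all, that of HIST1H2BK by the 3 H2B genes HIST1H2BD, HIST1H2BJ and HIST1H2BK, and that of HIST1H4C by both H4 members. HIST1H3E, HIST2H2AC and H2AFX each carried a core that no other member had.

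Many replication-dependent members were also annotated with longer transcripts. In 7 of the 14 (50%) an annotated transcript ran more than 100 bases past the stem-loop, against 9 of 50 (18%) genes of the class below the minimum. The distance was 1729 bases in HIST2H2BE, 14432 in HIST1H2AC, 12747 in HIST1H2BD and 6424 in HIST1H2BJ, but 4 in HIST1H1C and 5 in HIST1H2BK. The more abundant HIST1H1C and HIST1H2BK therefore had no annotated longer form, and the counts do not tell which form any read came from.

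The 250 bases before the transcription start were compared next, from the RefSeq promoter table (GRCh38.p14), which held 13 of the 14 replication-dependent and 8 of the 9 replacement members. The motifs were searched on both strands: the octamer ATTTGCAT, the TATA box TATAAA, the pentamer CCAAT of the CCAAT box and the cAMP response element TGACGTCA, and each was counted whether or not it overlapped another. The octamer, the binding motif of OCT factors and known from H2B promoters, was present in 8 of 13 replication-dependent members (61.5%), in 1 of 8 replacement members (12.5%) and in 2.03% of 27305 genes. The TATA box was present in 76.9% and 50% of the classes against 13% of genes, and the CCAAT box, bound by NF-Y, in 92.3% and 75% against 37%. The cAMP response element was in 2 replication-dependent members and no replacement member, against 2.03% of genes. The sequences below show the contrast between the H3.3 genes, with the H1 genes and an H2B gene beside them, and capitals mark the motifs found. They lie at chr1:226061581-226061830 (plus strand), chr17:75779780-75780029 (minus), chr3:129316287-129316536 (minus), chr6:26056471-26056720 (minus) and chr1:149886683-149886932 (minus).
H3F3A: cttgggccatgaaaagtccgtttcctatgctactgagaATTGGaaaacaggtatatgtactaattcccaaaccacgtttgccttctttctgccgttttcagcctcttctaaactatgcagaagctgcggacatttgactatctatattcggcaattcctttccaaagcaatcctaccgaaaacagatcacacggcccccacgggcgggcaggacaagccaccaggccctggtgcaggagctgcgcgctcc
H3F3B: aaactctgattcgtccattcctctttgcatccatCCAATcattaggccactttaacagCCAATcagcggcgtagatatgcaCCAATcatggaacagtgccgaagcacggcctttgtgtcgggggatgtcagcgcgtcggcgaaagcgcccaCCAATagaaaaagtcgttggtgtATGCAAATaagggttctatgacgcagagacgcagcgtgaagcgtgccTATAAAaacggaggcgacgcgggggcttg
H1FX: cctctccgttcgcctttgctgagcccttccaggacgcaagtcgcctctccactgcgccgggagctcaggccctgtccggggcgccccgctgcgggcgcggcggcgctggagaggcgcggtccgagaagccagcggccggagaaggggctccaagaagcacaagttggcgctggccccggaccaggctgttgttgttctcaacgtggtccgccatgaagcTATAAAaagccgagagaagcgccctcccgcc
HIST1H1C: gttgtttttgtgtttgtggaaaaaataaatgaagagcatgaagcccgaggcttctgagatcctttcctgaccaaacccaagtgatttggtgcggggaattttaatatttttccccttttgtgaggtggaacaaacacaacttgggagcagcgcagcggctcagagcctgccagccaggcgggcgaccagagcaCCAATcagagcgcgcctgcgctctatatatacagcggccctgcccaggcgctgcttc
HIST2H2BE: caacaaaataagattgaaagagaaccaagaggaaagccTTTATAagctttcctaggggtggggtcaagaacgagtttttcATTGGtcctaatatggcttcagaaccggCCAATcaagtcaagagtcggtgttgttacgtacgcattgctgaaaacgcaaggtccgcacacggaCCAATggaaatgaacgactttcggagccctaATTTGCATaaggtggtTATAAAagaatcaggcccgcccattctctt
The window of H3F3B was the only replacement window with the octamer, and it also held a TATA box and CCAAT boxes, whereas that of H3F3A, whose gene encodes the same protein, held a CCAAT box alone. H1FX held a TATA box and HIST1H1C a CCAAT box. The HIST2H2BE window holds the octamer and overlaps that of the divergent gene HIST2H2AC. A match here is a description of the letters and not of a bound site.

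Levels were compared between genes per length, here as the mean CPM over 18 libraries per kilobase of exon. That length joins the exons of all annotated transcripts of a gene, so it can exceed that of a single mRNA. The order of genes therefore depends on the annotation. H1FX, the linker histone H1.X, was highest at 439, followed by H3F3A at 232, H2AFZ (H2A.Z.1) at 202, H2AFX (H2A.X, phosphorylated at DNA breaks) at 100.2 and H3F3B at 79.9. HIST1H1C, the linker histone H1.2, led the replication-dependent genes at 30.8 and stood near H2AFV (H2A.Z.2) at 27.4 and H2AFY (macroH2A1) at 20.7. HIST1H2BK, an H2B gene, followed at 13.7, then HIST2H2AC at 3.13, HIST1H2BH at 2.94, H2AFJ (H2A.J, which is known to accumulate in senescent cells) at 2.68 and HIST1H2AC at 1.79, down to HIST1H3E at 0.103. All members together took 0.253% to 0.463% of a library's counts, and the replication-dependent members only 0.530% to 3.47% of those. Within each of the H2A, H2B, H3 and H4 families the low rows are similar genes, though their coding sequences were not compared here. How reads that match several genes were counted is not given. Counts of single HIST genes and of H3F3C (a near-copy of the H3.3 genes) are therefore uncertain, as are those of H3F3A, whose pseudogene H3F3AP4 held 1452 to 2203 counts.

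**Figure D1:**
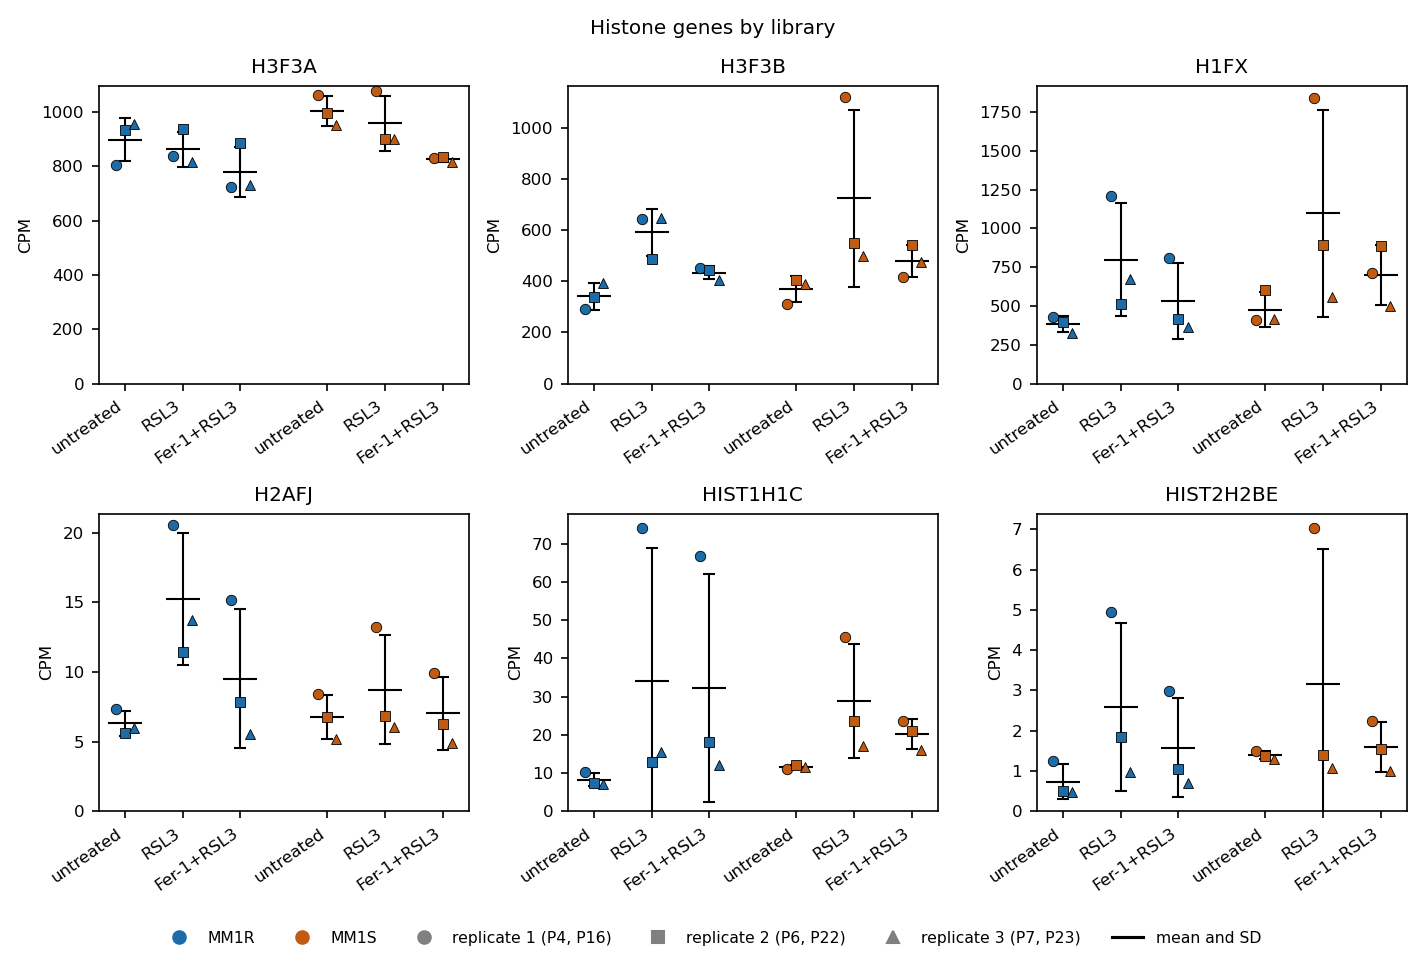
CPM (counts scaled to library size) of H3F3A, H3F3B, H1FX, H2AFJ, HIST1H1C and HIST2H2BE in each of the 18 libraries, by group on the horizontal axis, with a symbol for each passage and the group mean ± SD (n = 3). H3F3B lies higher in all RSL3 libraries than in all untreated libraries of its line, H3F3A does not, and the first passage of each line holds the highest HIST1H1C values.

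The first question was what RSL3 did to histone genes in either line. For the mean of both lines, genes of both classes were higher after 3 h of RSL3, led by H3F3B, H1FX and HIST1H1C. No member passed the main test in the lower direction. In the single lines the adjusted calls of the main edgeR fit, which has no passage term, were few, below or near the share of all genes. In that fit no replication-dependent member reached an unadjusted p under 0.05 in MM1S. With passage as a block more members were called in both lines, as given below. In MM1R 0 of 23 members passed an adjusted p of 0.05 by edgeR, where 3.36% of all 14281 genes did. At an unadjusted p under 0.05 there were 7, all higher, where 10.1% of genes were higher, and 6 of these members met the count minimum in untreated libraries. DESeq2 called 3 (H2AFJ, H3F3B and HIST1H1C). In MM1S 1 member, H3F3B, passed where 3.67% of genes did, and 3 had an unadjusted p under 0.05 and were higher, where 10.9% of genes were. Over the mean of both lines, which rests on the same libraries, 6 members passed and all were higher (H3F3B, H1FX, HIST1H1C, HIST1H2BJ, H2AFJ and H3F3C), where 8.7% of all genes passed as higher and 15.5% in either direction. DESeq2 called 8 for the mean. These shares are those of edgeR, and the share of all genes that DESeq2 called is not given here, so its counts are a description. HIST1H2BJ met the count minimum only through treated libraries, where a high value was needed, so its call is a description, and 5 of the 16 members that met it in untreated libraries passed. With passage as a block the counts were 8 in MM1R, 4 in MM1S and 11 for the mean, all higher, where 13.1%, 13.3% and 30.4% of all genes were called, and 7, 4 and 9 of them met the minimum in untreated libraries. Without adjustment, the groups did not overlap for 6 members in MM1R and 4 in MM1S, all higher, where 13.5% and 12.6% of genes did so, and 4 and 3 of these members met the count minimum in untreated libraries.

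H3F3B and H3F3A both encode H3.3, the H3 variant laid down outside replication, and only H3F3B was called. In the order of replicates 1, 2 and 3, H3F3B read 290.2, 339.5 and 395.2 CPM in untreated MM1R and 643, 487 and 647 CPM after RSL3. In MM1S it read 311.5, 406.5 and 388.7 CPM untreated and 1123, 551 and 500 CPM after RSL3. Every RSL3 library stood above every untreated library of its line. The log2 difference was 0.79 (SE 0.24, adjusted p = 0.0736) in MM1R, 0.97 (SE 0.24, adjusted p = 0.0304) in MM1S and 0.88 (SE 0.17, adjusted p = 0.00225) for the mean. The mean call was kept in each of 18 fits that left out 1 library, between 0.66 and 0.99 on the log2 scale. The MM1S call was not, since without replicate 1 of MM1S with RSL3 the difference was 0.51 (adjusted p = 0.152), and leaving out untreated MM1S replicate 1, 2 or 3 gave adjusted p = 0.154, 0.0715 and 0.0870. With passage as a block, the MM1R difference had adjusted p = 0.0491.

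H3F3A read 806, 934.5 and 954 CPM in untreated MM1R and 836, 935.5 and 816 CPM after RSL3. In MM1S the values were 1061, 996 and 953 CPM, then 1076, 900 and 899 CPM. The groups overlapped in both lines, and the mean difference was -0.06 on the log2 scale (SE 0.08, adjusted p = 0.650). H3F3C, which encodes H3.5, was scarce at 0.883, 1.09 and 1.68 CPM in untreated MM1R and 1.67, 1.63 and 1.71 CPM after RSL3, and at 0.725, 1.10 and 1.05 CPM then 3.55, 1.44 and 1.44 CPM in MM1S. Its RSL3 values lay above the untreated ones without overlap in MM1S only. Its mean difference of 0.80 (SE 0.26, adjusted p = 0.0496) sat at the threshold and was lost in 14 of the 18 fits without 1 library.

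Because 1 protein comes from both main H3.3 genes, the share of H3F3B among their summed counts needs no scaling between libraries. It was 26.5%, 26.6% and 29.3% in untreated MM1R and 43.5%, 34.2% and 44.2% after RSL3. In MM1S it was 22.7%, 29.0% and 29.0% and then 51.1%, 37.96% and 35.7%. All RSL3 libraries exceeded all untreated libraries of their line, with group means of 27.5% ± 1.58 and 40.6% ± 5.58 in MM1R and of 26.9% ± 3.63 and 41.6% ± 8.29 in MM1S (SD, n = 3).

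H1FX was the linker histone gene with the most counts. Untreated MM1R read 430.5, 396.5 and 326.4 CPM, and RSL3 libraries 1207, 516 and 673 CPM, with no overlap. Untreated MM1S read 411.5, 604 and 415.5 CPM and RSL3 libraries 1840, 893 and 555 CPM, where the lowest RSL3 value fell below the highest untreated one. The differences were 1.05 in MM1R (SE 0.40, adjusted p = 0.162), 1.20 in MM1S (SE 0.40, adjusted p = 0.105) and 1.13 for the mean (SE 0.28, adjusted p = 0.0136), the last kept in all 18 fits without 1 library. With passage as a block they were 0.96 (adjusted p = 0.0407) and 1.08 (adjusted p = 0.0284) in the single lines. The antisense row H1FX-AS1 overlaps this gene, and strand use in counting is not given. It read 10.9, 5.56 and 5.68 CPM in untreated MM1R, 20.1, 6.45 and 13.3 CPM after RSL3, 6.01, 6.48 and 5.62 CPM in untreated MM1S and 25.3, 10.4 and 8.11 CPM after RSL3, and its highest library in each line was that of H1FX.

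HIST1H1C, the replication-dependent linker gene, read 10.2, 7.46 and 7.07 CPM in untreated MM1R and 74.2, 12.7 and 15.5 CPM after RSL3. MM1S libraries read 11.1, 12.02 and 11.6 CPM and then 45.6, 23.7 and 17.1 CPM. Treated and untreated libraries did not overlap in either line, but replicate 1 of each line stood far above the others. The differences were 2.05 (SE 0.64, adjusted p = 0.0904) in MM1R, 1.31 (SE 0.63, adjusted p = 0.261) in MM1S and 1.68 for the mean (SE 0.45, adjusted p = 0.0188). Without replicate 1 of MM1R with RSL3 the mean difference was 1.04 (adjusted p = 0.0783). With passage as a block it was 1.62 (adjusted p = 0.0123) in MM1R and 1.21 (adjusted p = 0.0343) in MM1S.

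Among the H2A replacement genes only H2AFJ was called. It read 7.33, 5.61 and 5.97 CPM in untreated MM1R and 20.6, 11.4 and 13.7 CPM after RSL3, without overlap. The MM1S values were 8.39, 6.74 and 5.22 CPM and then 13.2, 6.87 and 6.08 CPM, with overlap. The difference was 1.27 in MM1R (SE 0.37, adjusted p = 0.0704, and 0.00181 with passage as a block), 0.36 in MM1S (SE 0.37, adjusted p = 0.653) and 0.82 for the mean (SE 0.26, adjusted p = 0.0461), the last lost in 11 of 18 fits without 1 library. The other 4 H2A variants gave mean differences close to 0, namely -0.08 for H2AFZ (SE 0.11), 0.05 for H2AFY (SE 0.09), 0.11 for H2AFV (SE 0.08) and 0.05 for H2AFX (SE 0.17), with adjusted p from 0.425 to 0.891. H2AFZ averaged 450 ± 75.0, 416 ± 56.6 and 404 ± 46.1 CPM in MM1R untreated, with RSL3 and with Fer-1 and RSL3, and 511 ± 72.5, 497 ± 24.2 and 472 ± 76.8 CPM in MM1S (SD, n = 3). In the same order of groups H2AFY averaged 329 ± 50.5, 339 ± 46.2 and 327 ± 39.2 CPM in MM1R and 362 ± 21.5, 378 ± 20.6 and 375 ± 5.95 CPM in MM1S. H2AFX averaged 124 ± 25.6, 123 ± 15.7 and 133 ± 7.14 CPM in MM1R and 183 ± 39.9, 197 ± 55.5 and 198 ± 59.2 CPM in MM1S. H2AFV averaged 158 ± 21.9, 172 ± 15.8 and 172 ± 16.7 CPM in MM1R and 215 ± 14.9, 228 ± 2.60 and 208 ± 20.6 CPM in MM1S. Within a line, the group means of each of these 4 genes differed by less than the largest SD among its groups.

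The core replication-dependent genes were lower in abundance and more scattered. HIST1H2AC, an H2A gene, read 2.08, 0.436 and 0.406 CPM in untreated MM1R and 16.8, 1.35 and 1.14 CPM after RSL3. Its MM1S libraries held 1.30, 1.15 and 0.853 CPM and then 5.26, 2.56 and 1.07 CPM. The groups overlapped in both lines, with untreated replicate 1 of MM1R above RSL3 replicates 2 and 3, and RSL3 replicate 3 of MM1S below untreated replicates 1 and 2. The mean difference of 2.06 (SE 0.72) had adjusted p = 0.0641, and 1.85 with adjusted p = 0.000177 with passage as a block. The blocked values were 2.42 (adjusted p = 0.00146) in MM1R and 1.29 (adjusted p = 0.0224) in MM1S.

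The H2B gene HIST2H2BE read 1.25, 0.490 and 0.463 CPM in untreated MM1R and 4.95, 1.84 and 0.968 CPM after RSL3. In MM1S it read 1.502, 1.36 and 1.31 CPM and then 7.03, 1.39 and 1.07 CPM, so a single MM1S library was raised. Its mean difference was 1.48 (SE 0.52, adjusted p = 0.0631), and 1.31 (adjusted p = 0.00546) with the block, where MM1R alone gave 1.75 (adjusted p = 0.0212).

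HIST1H2BK, another H2B gene, read 6.91, 4.36 and 2.72 CPM in untreated MM1R and 16.02, 6.39 and 4.39 CPM after RSL3. MM1S libraries read 7.51, 4.49 and 3.26 CPM and then 13.0, 5.75 and 3.63 CPM. The groups overlapped in both lines while every passage was higher after RSL3, and the mean difference was 0.74 (SE 0.46, adjusted p = 0.307) without and 0.65 (adjusted p = 0.0103) with the block. In MM1R the block gave 0.84 (adjusted p = 0.0346). HIST2H2AC, the H2A gene that faces HIST2H2BE, read 0.987, 1.47 and 1.85 CPM in untreated MM1R, 2.15, 2.71 and 1.71 CPM after RSL3, 0.725, 1.36 and 0.703 CPM in untreated MM1S and 2.17, 0.959 and 1.17 CPM after RSL3, with a mean difference of 0.61 (SE 0.26, adjusted p = 0.120).

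HIST1H2BJ, an H2B gene, passed the test for the mean (adjusted p = 0.0230) at very low counts. It held 0, 1 and 0 counts in untreated MM1R and 15, 2 and 4 after RSL3, and 3, 0 and 5 in untreated MM1S against 12, 6 and 6. No untreated library reached a library with RSL3 alone of its line. All untreated MM1R libraries were at or under 3 counts, so no fold is given, and the call was lost in 4 of 18 fits without 1 library. With passage as a block it was also called in MM1R (adjusted p = 0.0442). HIST1H2BD was called for the mean with passage as a block, at 0.72 (adjusted p = 0.0458). HIST1H3H (1.21, adjusted p = 0.0422) was called there too, but reached the count minimum in 0 untreated libraries, so that this value is a description. The other replication-dependent members (HIST1H2AE, HIST1H2AM, HIST1H2BH, HIST1H3E, HIST1H4C and HIST1H4H) averaged at most 25.1 counts per library and had mean adjusted p from 0.0951 to 0.902.

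**Figure D2:**
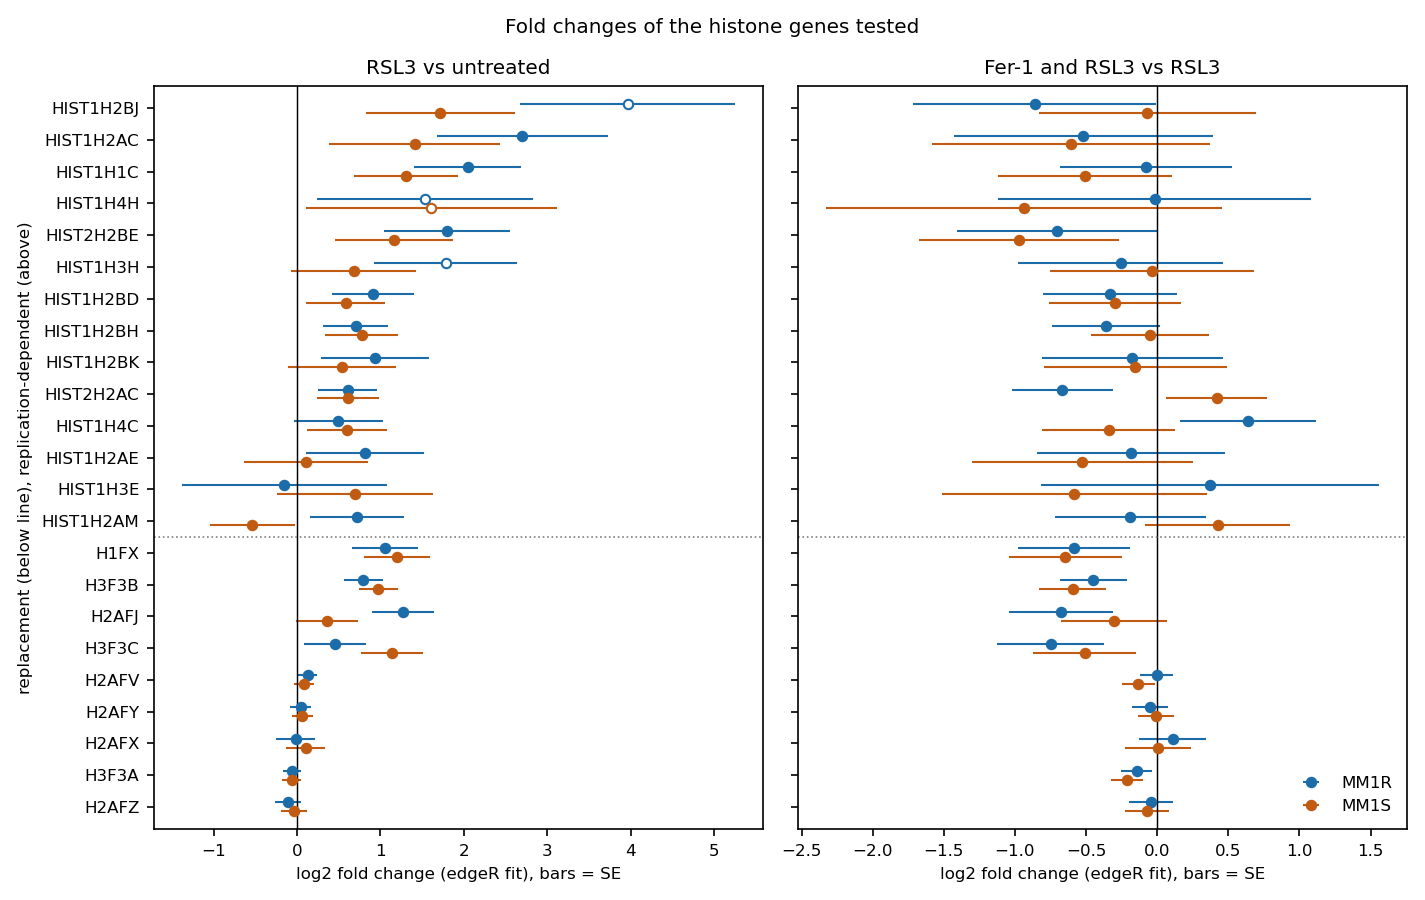
Log2 fold change ± SE of the 23 members in MM1R and MM1S, for RSL3 against untreated and for Fer-1 with RSL3 against RSL3, where open symbols mark a comparison with a group at or under 3 counts in every library. Most replication-dependent members and H3F3B, H1FX and H2AFJ lie right of 0 after RSL3, H3F3A, H2AFZ, H2AFX, H2AFY and H2AFV lie near 0, and most members lie slightly left of 0 with Fer-1.

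The libraries with the highest values were largely the same for many members. In MM1R with RSL3, replicate 1 (passage 4) was the highest of the 3 libraries for 11 of 14 replication-dependent and 2 of 9 replacement members, and in MM1S with RSL3 replicate 1 (passage 16) for 13 of 14 and 6 of 9. Among untreated libraries the first replicate was highest for 5 of 14 and 2 of 9 in MM1R and for 8 of 14 and 3 of 9 in MM1S. HIST1H3H and HIST1H4H reached the count minimum in replicate 1 libraries alone, so the rule favoured replicate 1 for them. They are among the 7 replication-dependent members that needed treated libraries to qualify. The share of all genes highest in replicate 1 was not computed, so these counts are a description. What set these passages apart was not tested. Without all 6 libraries of passages 4 and 16, a choice made after seeing the data, 18 members were tested, 3 were called in MM1R (HIST1H1C at 0.96, H2AFJ at 1.12 and H3F3B at 0.63), where 5.43% of all genes were, and 4 for the mean, where 10.7% were. Those 4 were HIST1H1C (0.87, adjusted p = 0.00360), HIST1H2AC (1.20, adjusted p = 0.0430), H2AFJ (0.62, adjusted p = 0.0230) and H3F3B (0.51, adjusted p = 0.00481). H1FX then had a mean difference of 0.61 (adjusted p = 0.0577) and H3F3C of 0.35 (adjusted p = 0.429), and the MM1S call of H3F3B was lost (0.40, adjusted p = 0.189).

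Set within passages, the direction was steadier than the size. The RSL3 to untreated log2 ratio of H3F3B was 1.15, 0.52 and 0.71 at MM1R passages 4, 6 and 7 and 1.85, 0.44 and 0.36 at MM1S passages 16, 22 and 23. That of H1FX was 1.49, 0.38 and 1.04, then 2.16, 0.56 and 0.42. That of HIST1H1C was 2.86, 0.77 and 1.13, then 2.04, 0.98 and 0.56. H3F3B, H3F3C, H1FX, H2AFJ, H2AFY, HIST1H1C, HIST1H2AC and HIST1H2BK were higher after RSL3 in 6 of 6 passages, and H2AFZ in 1 of 6. Some of these ratios were very small, at MM1R passage 7 0.02 for both H2AFY and H3F3C and at MM1S passage 22 0.03 for H2AFJ. The share of all genes higher at every passage was not computed, so these counts are a description. The ratio of HIST2H2BE was -0.29 at MM1S passage 23 and positive at the other 5.

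**Figure D3:**
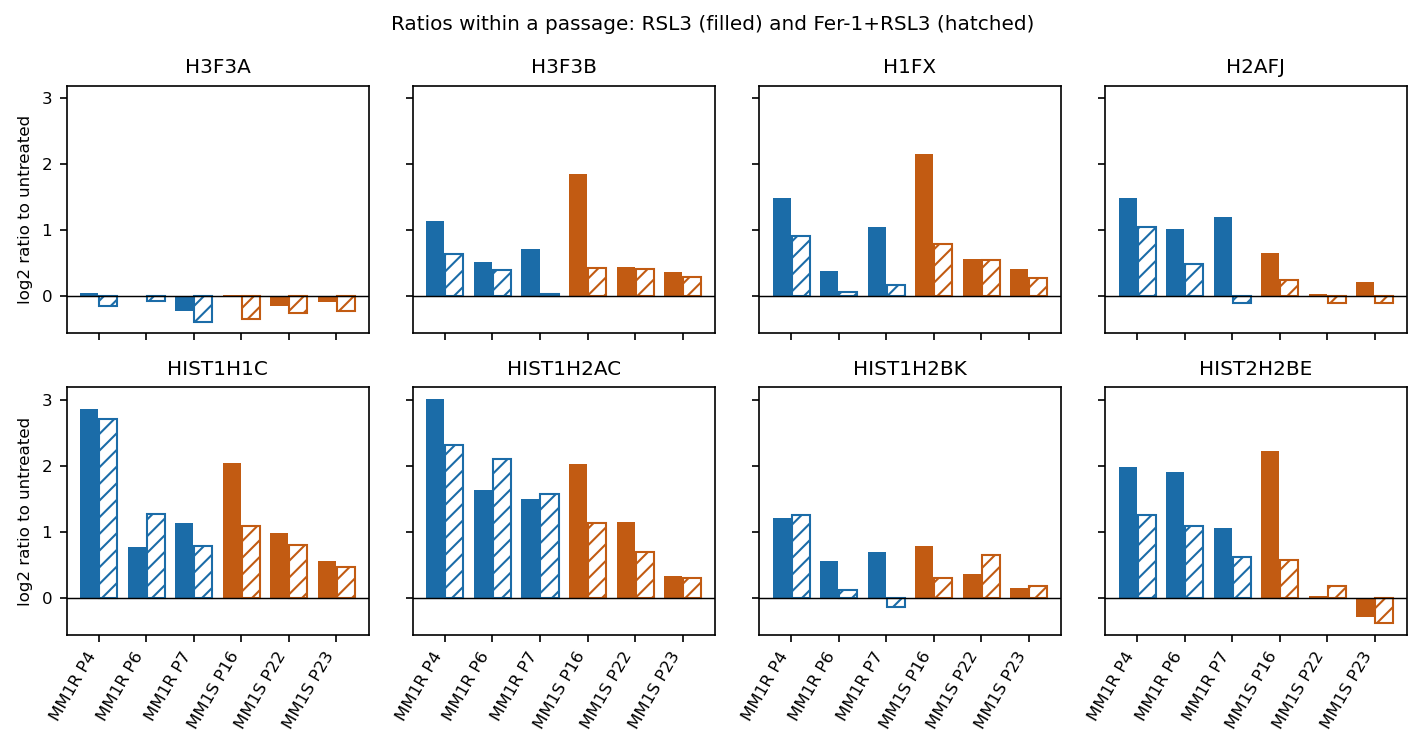
Log2 ratio to the untreated library of the same passage for H3F3A, H3F3B, H1FX, H2AFJ, HIST1H1C, HIST1H2AC, HIST1H2BK and HIST2H2BE, with RSL3 as filled and Fer-1 with RSL3 as hatched bars at MM1R passages 4, 6 and 7 and MM1S passages 16, 22 and 23. The RSL3 bars of H3F3B, H1FX, H2AFJ, HIST1H1C, HIST1H2AC and HIST1H2BK are above 0 at all 6 passages, and the bars at passages 4 and 16 are the tallest for H3F3B, H1FX and HIST1H1C.

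The classes were then set side by side without a test. For the mean of both lines 14 of 14 replication-dependent members had a positive RSL3 difference with a median of 0.74, and 7 of 9 replacement members with a median of 0.11, where 50% of all genes were positive. Over the 7 replication-dependent members that met the minimum in untreated libraries alone, 7 were positive with a median of 0.74. In MM1R the medians were 0.92 and 0.13 and in MM1S 0.69 and 0.11, and they stayed at 0.92 and 0.69 with members at or under 3 counts set to their bound. Over the 7 replication-dependent members that met the minimum in untreated libraries alone, the medians were 0.93 in MM1R and 0.77 in MM1S. The replication-dependent median therefore lay above the replacement median in each line, also over those 7. Of the replacement genes, H2AFJ (1.27) and H1FX (1.05) exceeded it in MM1R, and H1FX (1.20), H3F3C (1.14) and H3F3B (0.97) in MM1S.

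Summed over members, the replication-dependent share of histone counts was 0.725% ± 0.243 in untreated MM1R, 1.70% ± 1.37 after RSL3 and 1.80% ± 1.46 with Fer-1 and RSL3. In MM1S the shares were 0.754% ± 0.101, 1.13% ± 0.356 and 1.12% ± 0.305 (SD, n = 3). Exact Clopper-Pearson 95% intervals of single libraries, which cover counting error only, ran from 0.469% to 0.597% at the lowest library and from 3.33% to 3.62% at the highest. The log2 ratio of summed counts was 1.01 higher after RSL3 in MM1R, less than the SD of 1.09 within the RSL3 group, and 0.55 higher in MM1S, where that SD was 0.45. Without passages 4 and 16 the differences were 0.64 and 0.41. Leaving out HIST1H1C and H3F3A, the most abundant member of each class, moved the MM1S difference to 0.049, and counting H2AFX, which carries the stem-loop, with the replication-dependent genes moved the differences to 0.025 in MM1R and -0.11 in MM1S. H2AFX alone held more counts than all replication-dependent members summed in every library except replicate 1 of MM1R with RSL3. In untreated MM1R replicate 1 it held 1847 against 468, so the recounted sum mainly followed H2AFX.

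**Figure D4:**
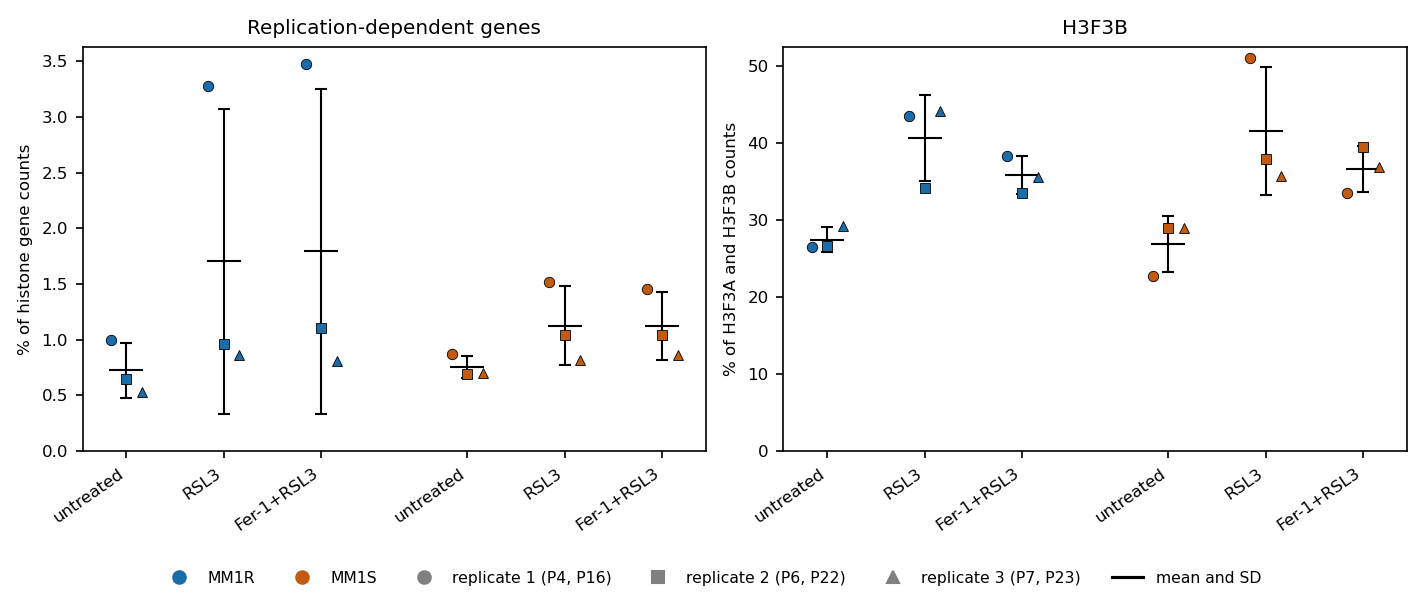
Replication-dependent share of histone counts (percent) and H3F3B share of H3F3A and H3F3B counts (percent) in each of the 18 libraries, by group, with group means ± SD (n = 3). The replication-dependent share is scattered after RSL3 and overlaps the untreated libraries in both lines, while the H3F3B share of every RSL3 library exceeds that of every untreated library of its line.

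The second question was whether Fer-1 given before RSL3 changed these levels. Most members were somewhat lower with Fer-1 than with RSL3 alone, and none passed the test. By edgeR 0 of 23 members passed in MM1R, in MM1S and for the mean, where 0, 0 and 0.119% of all genes did, and DESeq2 called 0 as well. At an unadjusted p under 0.05 there were 0 members in MM1R (6.17% of all genes), 1 lower member in MM1S (3.46% of genes were lower) and 4 lower members for the mean (6.2% of genes). These 4 were H3F3B at -0.52 (SE 0.17, adjusted p = 0.207), H3F3C at -0.63 (SE 0.26, adjusted p = 0.331), H3F3A at -0.18 (SE 0.08, adjusted p = 0.350) and H1FX at -0.62 (SE 0.28, adjusted p = 0.372), which encode H3 variants and H1.X. These comparisons share the RSL3 libraries with those above, so a high RSL3 library alone gives opposite signs in both.

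H3F3B read 451, 446 and 404 CPM with Fer-1 and RSL3 in MM1R, below all 3 RSL3 libraries and above all untreated ones. The MM1S values were 419, 543.5 and 476 CPM, within the range of 500 to 1123 CPM after RSL3 at the upper end and above all untreated libraries. The differences from RSL3 were -0.45 (SE 0.23) in MM1R and -0.60 (SE 0.23, adjusted p = 0.808) in MM1S, and the latter was -0.04 without passages 4 and 16. As a share of H3F3A and H3F3B, H3F3B stood at 35.8% ± 2.46 in MM1R and 36.6% ± 3.01 in MM1S (SD, n = 3), between untreated and RSL3 means.

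H1FX read 812, 417 and 368 CPM with Fer-1 and RSL3 in MM1R and 711, 889 and 502 CPM in MM1S. It was lower than with RSL3 alone at 6 of 6 passages, as were H2AFJ, H3F3A and H3F3B, but at MM1S passage 22 the log2 ratio of H1FX was only -0.01 and that of H3F3B -0.02. The share of all genes lower at every passage was not computed. H3F3A in MM1S read 832, 833 and 815 CPM with Fer-1 and RSL3, below all other MM1S libraries. H2AFJ read 15.2, 7.85 and 5.57 CPM in MM1R and 9.96, 6.29 and 4.88 CPM in MM1S.

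HIST1H1C read 66.7, 18.1 and 12.2 CPM with Fer-1 and RSL3 in MM1R and 23.7, 20.9 and 16.04 CPM in MM1S, within the range of its RSL3 libraries except for the lowest value in each line. HIST1H2AC read 10.4, 1.87 and 1.20 CPM and 2.85, 1.86 and 1.05 CPM, and HIST1H2BK 16.5, 4.73 and 2.46 CPM and 9.23, 7.05 and 3.67 CPM. In each line 20 of 23 members were lower than with RSL3 alone (12 of 14 replication-dependent and 8 of 9 replacement), where 51.4% of all genes in MM1R and 48.9% in MM1S were higher, with class medians of -0.22 and -0.15 in MM1R and -0.32 and -0.21 in MM1S. Over the 7 replication-dependent members that met the minimum in untreated libraries alone, 7 were lower in MM1R and 6 in MM1S, with medians of -0.36 and -0.30. Groups did not overlap for 3 lower members in MM1R (H3F3B, H3F3C and HIST2H2AC, where 6.44% of genes did so) and for 1 in MM1S (H3F3A, where 4.17% did). The H4 gene HIST1H4C was higher without overlap of CPM in MM1R, where 6.96% of genes were, on 7, 15 and 6 counts against 6, 6 and 5. It reached the count minimum in 0 untreated libraries, so its place on the list rests on treated libraries and this is a description. The 15 counts are those of the MM1R library with the high NR3C1 value. Without the MM1R library with the high NR3C1 value the counts called stayed at 0, and the log2 ratio of summed counts in MM1R differed from RSL3 by 0.27 against 0.06 with it. That difference had no stable sign, from -0.58 without replicate 1 of MM1R with Fer-1 and RSL3 to 0.69 without replicate 1 of MM1R with RSL3.

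Against untreated cells, Fer-1 with RSL3 gave 0 called members in either line by edgeR, where 9.22% of all genes passed in MM1R and 4.61% in MM1S. At an unadjusted p under 0.05 there were 4 in MM1R, 2 of which (HIST1H2BJ and HIST1H4C) met the minimum only through treated libraries, and 2 in MM1S, where 24.6% and 18.8% of genes were. DESeq2 called 1 (HIST1H1C, adjusted p = 0.0371) and 0, and its share of all genes is not given here. Without the library with the high NR3C1 value there were still 0 called members in MM1R, where 4.65% of all genes passed, and the log2 ratio of summed counts was 1.28 above untreated against 1.08 with it. HIST1H1C was 1.97 higher in MM1R (SE 0.64, adjusted p = 0.0649, and 0.00712 with passage as a block) and 0.80 higher in MM1S (SE 0.62, adjusted p = 0.554), and no treated library overlapped an untreated one in either line. The MM1R value was 0.87 (adjusted p = 0.410) without replicate 1 of MM1R with Fer-1 and RSL3, 1.06 (adjusted p = 0.00818) without all libraries of passages 4 and 16, and 2.25 (adjusted p = 0.0727) without the library with the high NR3C1 value. HIST1H2AC was called in MM1R with the block (2.19, adjusted p = 0.00124), and without the block gave 0.64 (adjusted p = 0.769) without that replicate 1 and 2.55 (adjusted p = 0.206) without the high NR3C1 library. With the block 2 members were called in MM1R and 1 in MM1S, where 22.2% and 14.7% of all genes were. HIST1H4C was 1.13 higher in MM1R (SE 0.50, adjusted p = 0.174), on at most 15 counts a library, and 0.62 (adjusted p = 0.579) without the high NR3C1 library, which held those 15.

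In MM1S HIST2H2AC read 1.66, 2.57 and 1.47 CPM with Fer-1 and RSL3, 1.03 above untreated on the log2 scale (SE 0.37, adjusted p = 0.123). H3F3A was 0.28 below on that scale (SE 0.11, adjusted p = 0.169, and 0.0326 with the block). HIST1H2BJ, at 6, 13 and 6 counts, lay above its untreated libraries. Groups did not overlap for 4 higher members in MM1R, where 16.5% of genes did so, and for 6 higher members (14.7% of genes) and 1 lower member (13.6%) in MM1S. Of the higher members, 2 in MM1R and 5 in MM1S met the count minimum in untreated libraries. These untreated libraries are also those of the RSL3 comparison.

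The lines themselves were compared untreated. H2AFV, which encodes H2A.Z.2, was the only member called, 1 of 23 where 10.5% of all genes were. It read 136, 158 and 180 CPM in MM1R and 198, 222 and 226 CPM in MM1S, without overlap, a log2 difference of -0.45 (SE 0.12, adjusted p = 0.0214) that was lost in 4 of 18 fits without 1 library and with correction for GC content and length. The lines share no passage, so line and passage cannot be told apart in this comparison. HIST1H2BH (1.05, SE 0.43, adjusted p = 0.131) and H2AFX (-0.56, SE 0.23, adjusted p = 0.148) came next. Of the 23 members 4 had higher values in MM1R, where 48.8% of genes did, and 19 lower.

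No member passed the test of a different response to RSL3 in the lines. The interaction gave 0 calls among the 23 members by edgeR, where 0% of all genes passed, with 0 members at an unadjusted p under 0.05 (1.55% of genes) and 0 called by DESeq2. The RSL3 difference in MM1R minus that in MM1S was -0.18 for H3F3B (SE 0.33), -0.15 for H1FX (SE 0.56), 0.92 for H2AFJ (SE 0.53) and 0.74 for HIST1H1C (SE 0.88) on the log2 scale.

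Genes that make and place histones were counted from 3 lists. Among 25 tested genes of histone mRNA 3′ end formation and transcription, 2 rose and 3 fell after RSL3 for the mean of both lines, where 15.5% of all genes passed, with a median of -0.07. ZNF473, a component of the U7 snRNP-dependent processing machinery, rose (0.60, SE 0.10, adjusted p = 0.000908), as did NFYC (0.25), a subunit of the CCAAT-binding factor NF-Y. LSM11, a U7 snRNP subunit, fell by 0.60 on the log2 scale (adjusted p = 0.00851), CSTF3 by 0.32 and SYMPK by 0.26, both of the cleavage complex. SLBP differed by -0.17 (SE 0.11, adjusted p = 0.357) and NPAT, which drives histone transcription in S phase, by -0.04 (SE 0.10, adjusted p = 0.835).

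Among 28 tested chaperone and deposition genes, 1 rose and 2 fell, where 15.5% of all genes passed, with a median of -0.17. ASF1A, a chaperone that hands H3 and H4 to the deposition complexes, rose from 79.0 ± 15.9 to 166 ± 29.9 CPM in MM1R (1.07, adjusted p = 0.00467) and from 88.2 ± 14.7 to 175 ± 12.5 CPM in MM1S (0.99, adjusted p = 0.00633; SD, n = 3). CABIN1, a subunit of the HIRA complex that deposits H3.3, fell by 0.47 (adjusted p = 0.000393) and ATRX, which places H3.3 at heterochromatin with DAXX, fell by 0.44 (adjusted p = 0.0331). HIRA (-0.22, SE 0.09, adjusted p = 0.116) and DAXX (-0.52, SE 0.28, adjusted p = 0.231) did not pass. Of 28 S phase genes 3 fell (CCNE1, cyclin E1, by 0.77, MCM7, a helicase subunit, by 0.34 and the transcription factor gene E2F1 by 0.29), against the same 15.5% of all genes, and the median was -0.12.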

How the data were processed

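RNA of 18 cultures of MM1R and MM1S was sequenced by the authors as paired-end 50-base reads, and the FastQC (0.11.5), STAR (2.7.3a) and DESeq2 names come from the submitters' processing notes, with alignment to hg19. The deposited table holds raw counts per gene symbol, not normalized, and library totals ran from 17635438 to 19368343 (median 18564719), so intervals of single shares cover counting error only. The counting tool, its annotation, strand use and any poly(A) selection are not given in the sources used here. Every sample was grouped from its labels, and p-values measure the spread between passages of a line. No comparison the authors computed was used.

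All 14281 genes that passed filterByExpr (minimum count 10; 99.9% of counts) were fitted in 1 edgeR quasi-likelihood model (edgeR 4.0.16, R 4.3.3, TMM, 6 group means, 12 residual degrees of freedom), with Benjamini-Hochberg adjustment over all of them, a threshold of 0.05 and two-sided tests. Fold changes are log2 with a prior count of 0.125, and groups with no library above 3 counts are given as counts. The alternatives were DESeq2 (1.42.0), other scalings and filters, fits of the compared groups alone, GC content and length offsets (annotated for 91.1% of genes tested), passage as a block, and leaving out each library. The histone members, gene lists and tests were chosen with earlier results of these data known. The text names every replacement member, the 5 replication-dependent members with the highest mean CPM, and members called or, where fewer than 3 were called, those with the 3 smallest p; other members named were chosen after their values were seen. Ratios and medians over a class have no test. On counts simulated for RSL3 in MM1R over 14049 genes, 45 of 100 genes changed 4-fold were called below a mean of 50 counts and 100 of 100 above it.

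The passage in the labels pairs libraries of a line: after group means were removed, libraries of the same passage had a median correlation over genes of 0.250 in MM1R and 0.416 in MM1S (9 pairs each). Replicates differed by more than sampling noise, with chi-square per degree of freedom from 8.26 to 171, so none was merged.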

Additional observations from a re-analysis of the deposited data

How the results depend on the processing

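The direction of every histone gene difference with an unadjusted p under 0.05 was kept under every alternative run. With passage as a block the counts of called members were 8 for RSL3 in MM1R, 4 in MM1S and 11 for the mean of both lines against 0, 1 and 6 without it, and 2 and 1 for Fer-1 with RSL3 against untreated MM1R and MM1S against 0 and 0. The block changed no call of Fer-1 with RSL3 against RSL3, and no paired analysis was possible for the untreated lines because they share no passage. The block with GC content and length offsets gave 7, 4, 10, 5 and 2 for the same comparisons. For the mean, and for Fer-1 with RSL3 against untreated MM1R and MM1S, 9, 5 and 2 of these met the minimum in untreated libraries. Of those, 8, 4 and 1 were higher and the rest lower. Without a filter on low counts there were 8 and 5 for RSL3 in MM1R and MM1S, 1, 2 and 2 for Fer-1 with RSL3 against RSL3 in MM1R, MM1S and their mean (H1FX, with H3F3B in the latter 2) and 2 and 2 against untreated. DESeq2 called 3 for RSL3 in MM1R and 1 for Fer-1 with RSL3 against untreated MM1R. With only the groups compared in the fit the counts were 2 and 0 for RSL3 in MM1R and MM1S, 1 and 1 for Fer-1 with RSL3 against untreated, and 0 for the untreated lines, where GC content and length offsets also gave 0. Without passages 4 and 16, chosen after seeing the data, they were 3 and 0 for RSL3 in MM1R and MM1S, 2 for Fer-1 with RSL3 against untreated MM1R and 4 for the lines. Leaving out 1 library gave 0 to 2 for RSL3 in MM1R and in MM1S, 2 to 9 for the mean, 0 to 1 for Fer-1 with RSL3 against untreated MM1R, 0 to 1 for the lines and 0 elsewhere; the mean count was 2 without MM1R RSL3 replicate 1, 3 without MM1S RSL3 replicate 1 and 9 without MM1S RSL3 replicate 3. H2AFJ also lost its mean call with upper-quartile scaling and with GC content and length offsets, and H3F3C with RLE scaling, without a filter, with the compared groups alone and with those offsets. The cause of these changes was not tested. Shares of all genes called are given above with the block alone, and for some comparisons without passages 4 and 16 or without 1 library. For the other settings, DESeq2 among them, they are not given. Those counts are therefore not read as a result about the histone genes. The ratio of summed counts moved by more than its spread with H2AFX counted as replication-dependent, to 0.025, -0.11 and -0.040 for RSL3 in MM1R, MM1S and their mean and to 0.12 for Fer-1 with RSL3 against untreated MM1S, and without the most abundant member of each class, to 0.049 and 0.23 for RSL3 and for Fer-1 with RSL3 in MM1S. With H2AFX moved, the replication-dependent sum mainly follows H2AFX, as stated above. Depth limits the replication-dependent genes, of which 9 of 14 averaged at most 25.1 counts per library.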
